A study of Canis lupus familiaris with 36 samples.

Results

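PD-1, CTLA4 and LAG3 are the 3 inhibitory receptors of T cells on a custom NanoString nCounter panel of 48 canine genes, and their RNA was followed through canine oral squamous cell carcinoma (OSCC). They were chosen by name, as 3 of the 44 immune genes of the panel, which also held 4 housekeeping genes. The samples were 34 tumors that arose spontaneously in pet dogs and 2 samples labelled mucosal stroma, called mucosa here, from patients 8 and 9. All were archived tissue, frozen or formalin fixed and paraffin embedded, and the labels do not say which sample was preserved in which way, nor give a treatment or an age. The extraction protocol also names tumor tissue from lymph nodes, again without the samples. The design text counts 33 dogs for the 36 samples and has 1 dog giving both a tumor and mucosa, and which samples share a dog is not shown, so p-values measure the spread between samples. The probe named PD-1 was matched to the gene PDCD1 (gene ID 486213), CTLA4 to gene ID 403696 and LAG3 to gene ID 486720.

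T cells are switched on through the T cell receptor, whose CD3 chains include CD3e, together with a costimulatory signal from CD28 and its relatives. Inhibitory receptors appear on T cells after activation and hold the response in check. CTLA4 competes with CD28 for the ligands CD80 and CD86 and is also carried constitutively by regulatory T cells, which are defined by the transcription factor FOXP3. PD-1 binds the ligands PD-L1 and PD-L2 and dampens signalling from the T cell receptor and CD28. LAG3 resembles CD4 in structure and binds MHC class II. All of them are studied as targets of checkpoint immunotherapy, and their sustained presence on the same T cells is a known feature of exhaustion.

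Values are housekeeping-normalized signals on the log2 scale unless a count is named, and since each probe has its own efficiency, levels are compared between samples and not between genes. The positive controls, synthetic targets added in equal amounts to every reaction, split the samples into what is called here a first batch, of 7 tumors and both mucosa samples, and a second batch of 27 tumors. Dividing the second of these controls by the third gave 2.59 to 2.85 in the first batch and 1.54 to 1.77 in the second. Total counts over the 48 genes ran from 27092 to 665587 in tumors and were 117883 and 149876 in mucosa, and across tumors the total had a Pearson's r of -0.18 with PD-1, 0.12 with CTLA4 and 0.03 with LAG3 (permutation p = 0.309, 0.498 and 0.850, two-sided; adjusted over these 3 and CD3e, 0.664, 0.664 and 0.850). The tumors of patients 33 and 34 resembled each other more than any other tumors (561 pairs), as their immune genes differed by 0.192 log2 units on average, sign ignored, compared with 0.511 in the next closest pair, and they also held the highest CD3e and PD-1 values. Whether they came from 1 dog is not stated, and values without them are given where they matter.

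PD-1 varied most among tumors. Its lowest tumor value was 5.12 (patient 4), its median 7.18 and its highest 10.87 (patient 33), a 53.8-fold range of normalized signal, with a mean of 7.38 ± 1.43 (SD, n = 34). CTLA4 ran from 6.13 (patient 15) through a median of 8.46 to 9.94 (patient 23), a 14.0-fold range with a mean of 8.37 ± 1.02 (SD, n = 34). LAG3 was the most even of the 3, from 6.93 (patient 17) through a median of 8.83 to 10.17 (patient 35), a 9.49-fold range with a mean of 8.73 ± 0.75 (SD, n = 34). By SD across tumors, PD-1 ranked 5, CTLA4 20 and LAG3 36 among the 44 immune genes, whose SDs ran from 0.48 to 2.09 with a median of 1.01. PD-1 exceeded the negative-control background of its sample, the mean of the 6 negative controls plus 2 SDs, in 33 of 34 tumors. The exception was the tumor of patient 6, with 44 counts against a background of 45.8, and CTLA4 and LAG3 were above background in all 34 tumors.

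PD-1 was at the edge of detection in mucosa. The mucosa of patient 8 had 9 PD-1 counts and that of patient 9 had 11, below their backgrounds of 16.4 and 19.0 counts, and the normalized values were 3.44 and 3.57. Every tumor lay above both, the lowest standing at 5.12. LAG3 was above background in both mucosa samples, at 86 counts in patient 8 and 93 in patient 9, or 6.70 and 6.65 on the log2 scale, and again every tumor lay above both, although the lowest tumor, at 6.93, came close. CTLA4 gave 132 counts in the mucosa of patient 8 and 29 in that of patient 9, or 7.31 and 4.96. For CTLA4 the groups overlapped, since 28 of 34 tumors lay above both mucosa samples and 6 lay between them. A complete separation of all tumors from both mucosa samples was found for 6 of the 44 immune genes (13.6%), PD-1 and LAG3 among them.

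**Figure D1:**
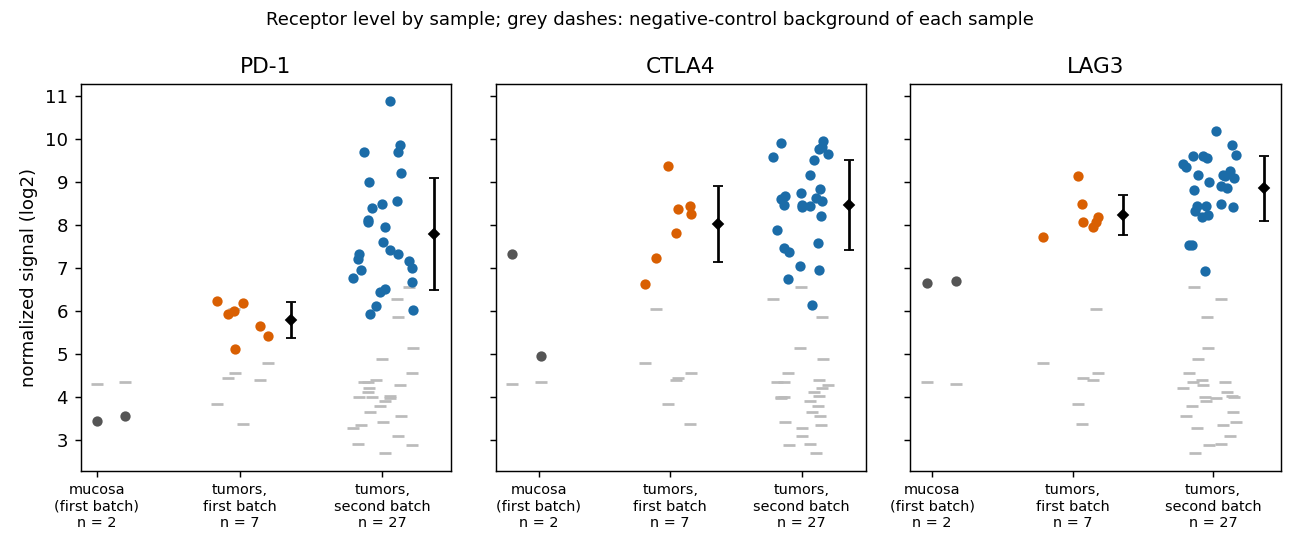
Normalized signal (log2) of PD-1, CTLA4 and LAG3 in each sample, for the 2 mucosa samples, the 7 tumors of the first batch and the 27 tumors of the second batch. Diamonds with bars are mean ± SD of the tumors, and grey dashes mark each sample's negative-control background. Both mucosa samples lie below background for PD-1, and the first-batch tumors sit between 5.12 and 6.22 for PD-1.

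All 3 receptors were higher in tumors than in mucosa over the 36 samples. The log2 difference was 3.88 for PD-1 (SE 0.98, limma adjusted p = 0.00328), 2.23 for CTLA4 (SE 0.75, limma adjusted p = 0.0174) and 2.05 for LAG3 (SE 0.56, limma adjusted p = 0.00518), where p-values were adjusted by Benjamini-Hochberg over the 44 immune genes. Among these genes 14 were called higher in tumors (31.8%). As PD-1 in mucosa is only bounded, its difference was recomputed with every value raised to the background of its sample, which gave 3.05 (limma adjusted p = 0.0163). With the tumors as measured and only the mucosa set to its background, the mean PD-1 difference was 8.27-fold. That is a lower bound only for the detection limit in mucosa, and covers neither the spread between samples nor the batch. With every value raised to background, the confidence interval of the difference ran from 1.08 to 5.02 log2 units. The median difference over the immune genes was itself 0.91, and relative to it PD-1 stood 2.97 higher, CTLA4 1.33 and LAG3 1.15. With samples rescaled so that the median of the immune genes was equal in each, that median difference became -0.30, the calls over the panel moved from 14 higher and 1 lower to 5 higher and 7 lower, and PD-1 was still called at 2.67 (limma adjusted p = 0.0103) while CTLA4 at 1.03 (limma adjusted p = 0.112) and LAG3 at 0.85 (limma adjusted p = 0.0944) were not.

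Both mucosa samples lay in the first batch, so the tumors of that batch are their nearest comparison. There PD-1 was 2.29 higher than in mucosa (limma adjusted p = 0.00403) and LAG3 1.56 higher (limma adjusted p = 0.0279), and CTLA4 differed by 1.88 without passing the threshold (limma adjusted p = 0.101). The background in this comparison was 8 of 44 genes called higher (18.2%), and the 7 tumors lay above both mucosa samples for 11 of 44 genes (25%), with PD-1 and LAG3 among them and CTLA4 not. With only the mucosa set to its background, the mean PD-1 difference in the batch was 2.75-fold, again a bound only for the detection limit. With every value raised to background, PD-1 in the batch had a limma adjusted p of 0.0330. A fit to all 36 samples that included the batch called 6 of 44 genes higher (13.6%), and none of the 3 receptors passed in it (limma adjusted p = 0.0773 for PD-1, 0.109 for CTLA4 and 0.0662 for LAG3). An exact permutation test within the batch, two-sided, gave adjusted p = 0.111 for PD-1 and LAG3 and 0.183 for CTLA4, and the smallest unadjusted p it allows is 0.0278.

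The 2 mucosa samples weighed differently on each receptor. Without the mucosa of patient 8, the differences were 3.81 for PD-1 (limma adjusted p = 0.0556), 3.41 for CTLA4 (0.0401, limma) and 2.08 for LAG3 (0.0602, limma). Without that of patient 9 they were 3.94 (limma adjusted p = 0.0431), 1.06 (0.448, limma) and 2.03 (0.0630, limma). The size of the PD-1 and LAG3 differences therefore hardly moved, whereas that of CTLA4 moved more than 1.5 times either way. In each of these fits a single mucosa sample is assumed to vary as the tumors do.

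**Figure D2:**
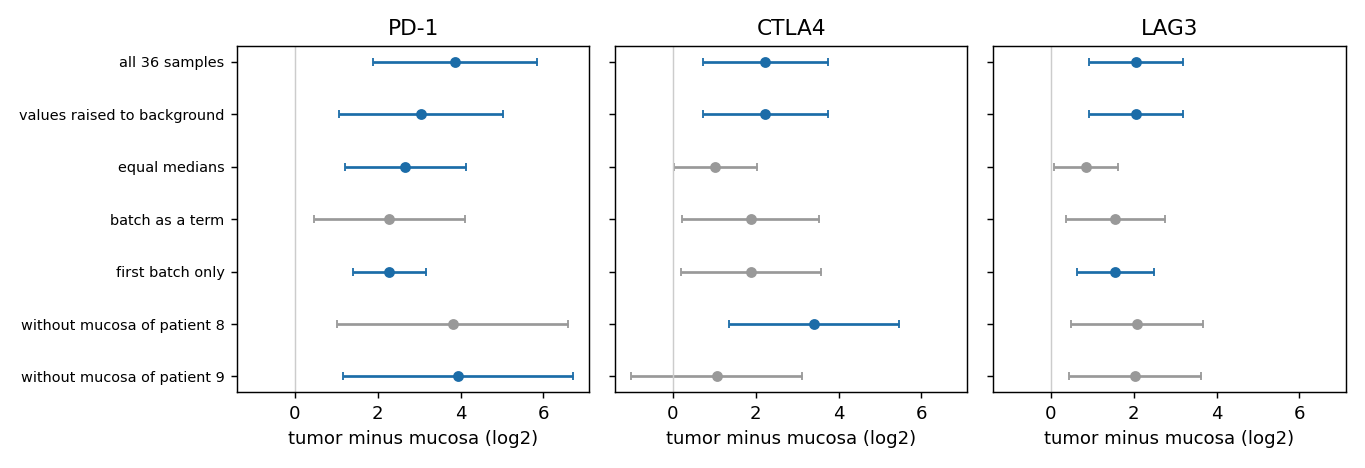
Difference between tumors and mucosa (log2, x axis) for each receptor under 7 ways of computing it, with 95% confidence intervals. Blue marks a limma adjusted p under 0.05 and grey the rest. All differences are positive, and CTLA4 without the mucosa of patient 9 has an interval that includes 0.

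PD-1 also differed between the batches of tumors. In the 7 first-batch tumors PD-1 ran from 5.12 to 6.22 with a median of 5.93, and in the 27 second-batch tumors from 5.93 to 10.87 with a median of 7.43. Of the second-batch tumors, 24 lay above every first-batch tumor. The difference was 2.00 (SE 0.48, limma adjusted p = 0.00820), or 4.01-fold, and PD-1 was the only one of 44 genes called (2.27%). CTLA4 was 0.44 higher in the second batch (limma adjusted p = 0.457) and LAG3 0.62 higher (limma adjusted p = 0.159). CD3e moved with the batch as well, at 9.25 ± 0.75 (SD, n = 7) in the first batch and 10.54 ± 1.40 (SD, n = 27) in the second. With CD3e as a covariate, the PD-1 difference was 1.17 (limma adjusted p = 0.0581), that of CTLA4 -0.36 (limma adjusted p = 0.444) and that of LAG3 0.19 (limma adjusted p = 0.648), with 0 of 43 genes called by limma (0%) and 9 at an unadjusted p under 0.05. The labels do not show how the dogs, tissue preservation or runs differed between the batches, and their part in the difference was not tested.

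Tumors high in one receptor tended to be high in the others. Across the 34 tumors, PD-1 and CTLA4 had a Pearson's r of 0.619 (permutation p = 0.000130, adjusted p = 0.00105) and a Spearman's rho of 0.707 (permutation p = 2.99997e-05, adjusted p = 0.000346). PD-1 and LAG3 had an r of 0.646 (permutation p = 5.99994e-05, adjusted p = 0.000579) and a rho of 0.723 (permutation p = 1e-05, adjusted p = 0.000158). CTLA4 and LAG3 had an r of 0.667 (permutation p = 4.99995e-05, adjusted p = 0.000509) and a rho of 0.698 (permutation p = 2.99997e-05, adjusted p = 0.000346). These tests were two-sided with 100000 permutations, of which the smallest possible p is 1e-05, and were adjusted over all 946 pairs of immune genes. Each pair was permuted in both gene orders, and elsewhere an unadjusted p may come from the other order than its adjusted p. All 3 pairs passed, against a background of 279 positive pairs among the 946 (29.5%) and a median r of 0.204 over all pairs. The tumors share the 4 housekeeping genes that scale them and differ in batch and depth.

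The extremes restate this relation, as they are cut from the same values, and their overlap was not compared with that of other gene pairs. Of the 8 tumors highest in PD-1, 5 were among the 8 highest in CTLA4 and 5 among the 8 highest in LAG3, and CTLA4 and LAG3 shared 4. At the low end each pair shared 5 of 8. The tumors of patients 22, 33 and 34 were among the 8 highest for all 3 receptors, and those of patients 2, 6 and 18 among the 8 lowest. In the tumor of patient 33, PD-1 was 10.87, CTLA4 9.76 and LAG3 9.86, and in that of patient 2 they were 5.42, 6.63 and 7.73. No tumor was among the 8 highest in one receptor and the 8 lowest in another.

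**Figure D3:**
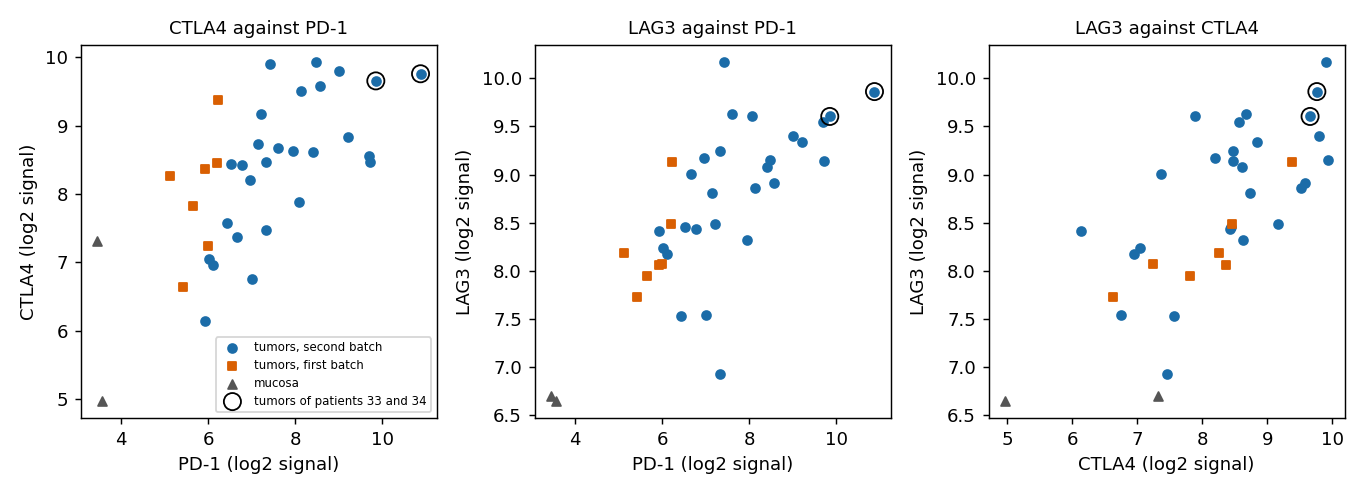
Log2 signal of each pair of receptors, with 1 point per sample, circles for second-batch tumors, squares for first-batch tumors and triangles for mucosa. Rings mark the tumors of patients 33 and 34. Pearson's r over the 34 tumors is 0.619 for PD-1 with CTLA4, 0.646 for PD-1 with LAG3 and 0.667 for CTLA4 with LAG3.

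The relations kept their sign within batches. In the second batch r was 0.672 for PD-1 with CTLA4 (permutation adjusted p = 0.000873), 0.588 for PD-1 with LAG3 (0.00845) and 0.634 for CTLA4 with LAG3 (0.00338). In the 7 tumors of the first batch r was 0.469, 0.612 and 0.871 (exact permutation p = 0.290, 0.133 and 0.00952), and none of the 946 pairs passed the adjustment there. Leaving out the 2 tumors farthest from the median of PD-1, those of patients 33 and 34, gave r of 0.555 with CTLA4 and 0.582 with LAG3. Leaving out those farthest in CTLA4, patients 2 and 15, gave 0.672 with LAG3. Rescaling each sample to an equal median over the immune genes lowered r to 0.134, 0.086 and 0.015 (permutation adjusted p = 0.642, 0.787 and 0.971), so none of the 3 pairs passed once the middle of the immune genes was set equal between tumors. That scaling also removes any change shared by most immune genes. The median r over all 946 pairs was 0.004 with it, compared with 0.204 without. What the shared change reflects was not tested.

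CD3e, the T cell receptor component used here as a measure of T cell RNA, accompanied all 3 receptors. Its tumor values ran from 8.08 through a median of 10.31 to 14.19, and its mucosa values were 8.98 in patient 8 and 6.85 in patient 9. Across tumors r with CD3e was 0.797 for CTLA4 (permutation adjusted p = 0.000146), 0.758 for PD-1 (0.000146) and 0.659 for LAG3 (0.000334), and rho was 0.880, 0.766 and 0.707 (adjusted p = 0.000158 for each). Without the tumors of patients 33 and 34, which are farthest from the CD3e median, r was 0.830, 0.647 and 0.623. In bulk tissue, more T cells and more receptor RNA per T cell cannot be told apart.

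The fitted slope on CD3e over the 34 tumors was highest for PD-1 and lowest for LAG3. For each log2 unit of CD3e, PD-1 rose by 0.78 (95% confidence interval 0.54 to 1.02), CTLA4 by 0.58 (0.42 to 0.74) and LAG3 by 0.35 (0.21 to 0.50). A doubling of CD3e thus went with 1.71-fold PD-1 and 1.28-fold LAG3, with CTLA4 between them. A slope of 1 would be a receptor in proportion to CD3e, and the interval of PD-1 included it whereas those of CTLA4 and LAG3 lay below it. With the batch as a term, the PD-1 slope was 0.65 (0.41 to 0.88). Without the tumors of patients 33 and 34, CTLA4 had a slope of 0.79 (0.59 to 0.99), above the 0.77 of PD-1 (0.43 to 1.11). The order of PD-1 and CTLA4 thus rests on that pair of tumors. LAG3 had a slope of 0.43 (0.23 to 0.63) without them, and its interval overlapped that of PD-1. The differences between slopes were not tested. After rescaling to equal medians the slopes were 0.58, 0.25 and -0.14, and that of LAG3 (-0.33 to 0.06) included 0.

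**Figure D4:**
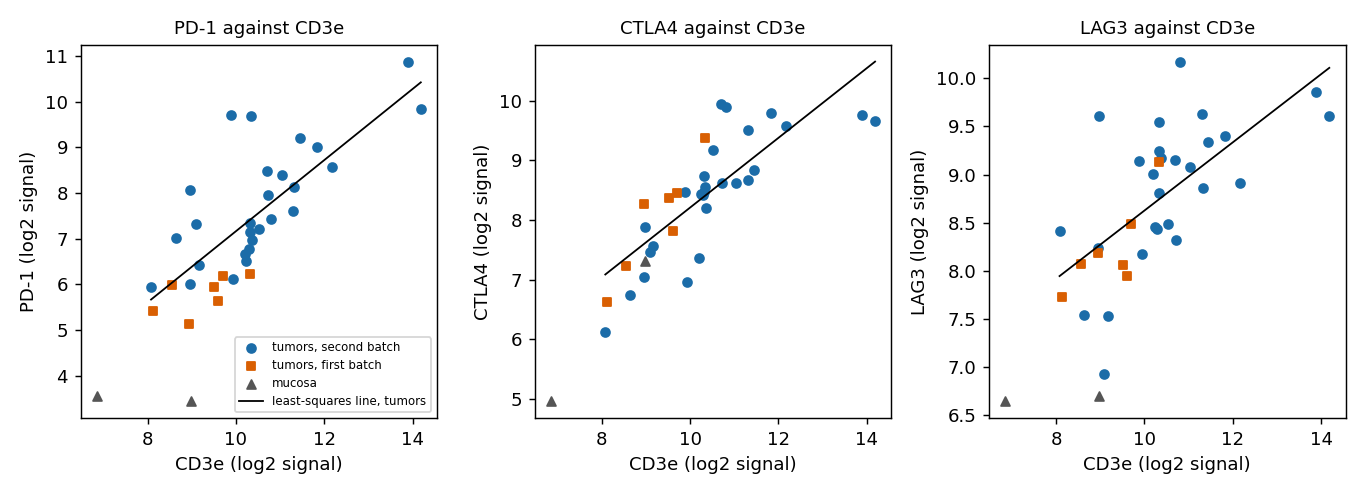
Log2 signal of each receptor against that of CD3e, with 1 point per sample (circles, second-batch tumors; squares, first-batch tumors; triangles, mucosa) and the least-squares line through the 34 tumors. The slopes are 0.78 for PD-1, 0.58 for CTLA4 and 0.35 for LAG3, and the 2 tumors with CD3e near 14 lie below the CTLA4 line.

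Relative to CD3e, the tumors and mucosa were not separated. PD-1 minus CD3e was -5.54 in the mucosa of patient 8 and -3.28 in that of patient 9, and ran from -4.34 through a median of -3.09 to -0.18 in tumors. The mean difference was 1.51 (exact permutation p = 0.0619, two-sided; 0.186 adjusted over the 3 receptors), and 0.69 with values raised to background (exact permutation p = 0.346). CTLA4 minus CD3e was -1.67 and -1.88 in mucosa against -4.53, -1.80 and -0.68 as the lowest, median and highest tumor, a difference of -0.13 (exact permutation p = 0.802, adjusted p = 0.802). LAG3 minus CD3e was -2.28 and -0.20 in mucosa against -4.58, -1.53 and 0.64 in tumors, a difference of -0.31 (exact permutation p = 0.649, adjusted p = 0.802). The smallest p of these 630 splits is 0.00159. Against the mean of CD3e, CD27 and CD28 in place of CD3e, PD-1 was 2.06 higher in tumors (exact permutation p = 0.0143, adjusted p = 0.0429). That value uses the PD-1 signals of mucosa below background, and it was not recomputed with values raised to background. In the first batch alone, relative to CD3e, the difference was 0.95 for PD-1 (exact permutation p = 0.222), again with mucosa signals below background. It was 0.54 for CTLA4 (exact permutation p = 0.111), with 6 of 7 tumors above both mucosa samples, and 0.22 for LAG3 (exact permutation p = 0.722). The smallest p possible there is 0.0278.

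With CD3e as a covariate the receptors no longer tracked each other beyond the threshold. The partial r was 0.038 for PD-1 with CTLA4 (permutation p = 0.832, adjusted p = 0.936), 0.299 for PD-1 with LAG3 (permutation p = 0.0866, adjusted p = 0.347) and 0.312 for CTLA4 with LAG3 (permutation p = 0.0716, adjusted p = 0.316). The rank versions were 0.106, 0.399 and 0.227 (adjusted p = 0.789, 0.163 and 0.529). Among the 903 pairs of the other 43 immune genes given CD3e, 40 were positive and passed (4.43%), and the median was 0.038.

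Each receptor was then set against the other 43 immune genes. PD-1 was called with 22 of them, CTLA4 with 20 and LAG3 with 20, all positive, against the background of 29.5% of pairs. Of the 41 genes that are not receptors themselves, 16 were called with all 3 receptors and 19 with none. Given CD3e, 4 genes passed for PD-1 (3 positive and 1 negative), 3 for CTLA4 (all positive) and 0 of 42 for LAG3, which had 4 at an unadjusted p under 0.05. These counts are to be read against 53 of 903 pairs passing given CD3e, 40 of them positive (4.43%).

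CTLA4 was closest to its own relatives. Its highest r was with ICOS (0.925; rho 0.911), an activation-induced costimulatory receptor, and CD28 (0.911; rho 0.918), followed by CD27 (0.800; rho 0.859), a costimulatory receptor of the TNF receptor family, CD3e and FOXP3 (0.785; rho 0.841). All had an adjusted p of 0.000146 (permutation of r). ICOS and CD28 kept these values within the second batch (0.930 and 0.909) and the first (0.877 and 0.909; exact permutation p = 0.00813 and 0.00238). Given CD3e, r was 0.780 for ICOS and 0.751 for CD28 (permutation adjusted p = 0.00129 for both), and these partial relations passed in every alternative in which they were computed, equal medians included, the lowest being 0.555 and 0.605. ICOS in tumors ran from 7.26 to 11.35 and CD28 from 5.74 to 9.91, and in both genes, as in CTLA4, one mucosa sample was far below the other (6.45 and 8.48 for ICOS, 6.01 and 7.54 for CD28). In the RefSeq annotation of the dog, CTLA4 lies on chromosome 37 between CD28 and ICOS as its direct protein-coding neighbours. The probe sequences were not analysed here, so binding of a probe to a relative was not tested.

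PD-1 was closest to FOXP3. FOXP3 had an r of 0.798 with PD-1 (rho 0.819, permutation adjusted p = 0.000146), followed by CD3e, CD8a (0.752; rho 0.710), the coreceptor of cytotoxic T cells, and CD27 (0.693; rho 0.639). Given CD3e, FOXP3 kept an r of 0.549 (permutation p = 0.00150, adjusted p = 0.0356), and it passed also for CTLA4 at 0.493 (permutation p = 0.00272, adjusted p = 0.0472) though not for LAG3 at 0.204 (adjusted p = 0.524). In the second batch alone the PD-1 value was 0.588 (adjusted p = 0.0513) and that of CTLA4 0.566 (adjusted p = 0.0534). For CTLA4 the call was lost in 5 of 9 alternatives, among them equal medians (0.408, adjusted p = 0.129), the mean of CD3e, CD27 and CD28 as the covariate (0.409, adjusted p = 0.136) and without the tumors of patients 33 and 34 (0.495, adjusted p = 0.0668). Whether FOXP3 was closer to one receptor than to another was not tested.

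Other genes passed with PD-1 given CD3e. ICOSLG, the ligand of ICOS, had an r of 0.668 without the covariate (rho 0.635) and 0.652 given CD3e (permutation adjusted p = 0.00451), also with batch added (0.580, adjusted p = 0.0150), although in the 7 first-batch tumors the plain r was -0.200 (exact permutation p = 0.661). KDM6B, a histone H3K27 demethylase, had a plain r of 0.199 (adjusted p = 0.420) and 0.590 given CD3e (adjusted p = 0.0133), and lost the call in 4 of 9 alternatives, with batch added (0.462, adjusted p = 0.0677), with equal medians (0.463, adjusted p = 0.0847), in the second batch alone (0.449, adjusted p = 0.159) and given CD8a instead (0.394, adjusted p = 0.135). TNFSF10, which encodes the death ligand TRAIL, had a plain r of -0.035 with PD-1 (adjusted p = 0.896) and was negatively correlated given CD3e, at -0.752 (rho -0.651, permutation adjusted p = 0.00129). Tumors with more PD-1 than their CD3e level predicted had less TNFSF10 than it predicted. In the 7 first-batch tumors the plain r of TNFSF10 with PD-1 had the opposite sign, at 0.805 (exact permutation p = 0.0292, adjusted p = 0.302), and the relation given CD3e was not computed in that batch alone. Over larger sets of tumors, the relation given CD3e passed in the 9 alternatives computed, from -0.561 to -0.780, among them the second batch alone (-0.771, adjusted p = 0.00258) and without the tumors of patients 33 and 34 (-0.772, adjusted p = 0.00151), and with equal medians and no covariate it was -0.707 (adjusted p = 0.000631). The corresponding values given CD3e were 0.070 for CTLA4 (adjusted p = 0.857) and -0.079 for LAG3 (adjusted p = 0.840).

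LAG3 was closest to CD8a (0.727; rho 0.769) and the T-box transcription factor listed as TBX (0.685; rho 0.664), both with a permutation adjusted p of 0.000146. CD28, CTLA4 and CD3e came next, at 0.667, 0.667 and 0.659. LAG3 was also called with the cytolytic genes GZMA (0.587), GZMB (0.597) and PRF1 (0.580). In the second batch CD8a and TBX had r of 0.674 and 0.654 with LAG3, and in the first 0.783 and 0.552 (exact permutation p = 0.0188 and 0.202). None of its relations passed given CD3e by Pearson's r. By Spearman's rho OX40 passed, as a negative relation of -0.541 given CD3e (permutation adjusted p = 0.0216). Its Pearson's r given CD3e was -0.296 (adjusted p = 0.350).

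**Figure D5:**
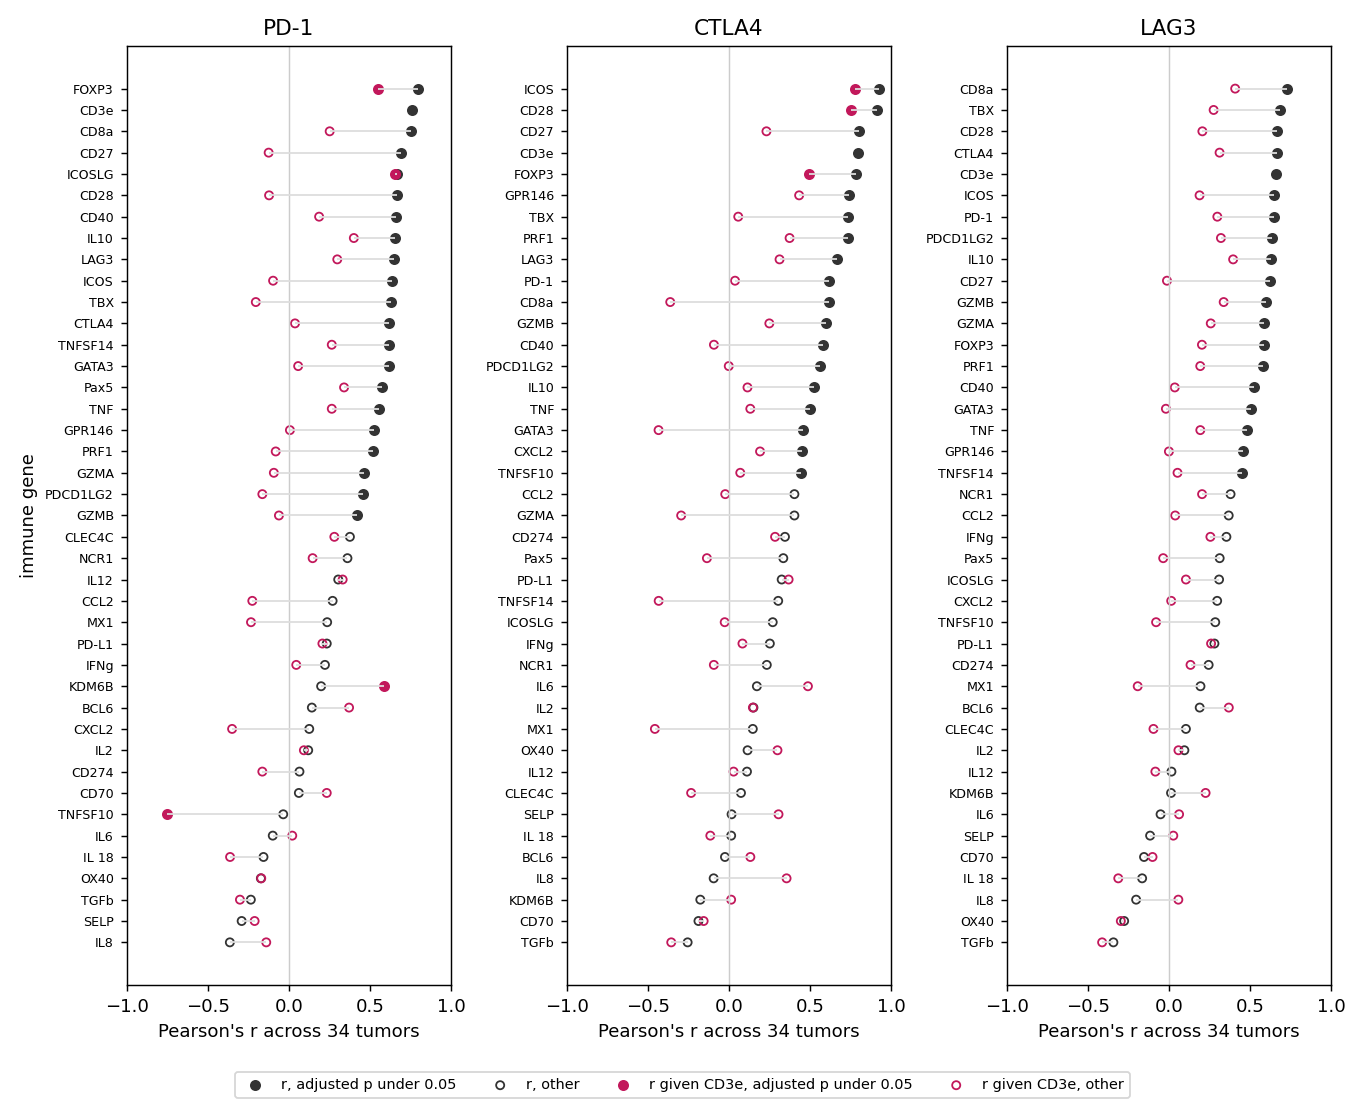
Pearson's r of each receptor with the listed immune genes across 34 tumors (x axis), sorted by r, as measured (black) and with CD3e as a covariate (magenta). Filled points have an adjusted p under 0.05. Most black points move towards 0 given CD3e, while ICOS and CD28 stay high for CTLA4 and TNFSF10 becomes strongly negative for PD-1.

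The ligands of PD-1 followed the receptors unevenly. PDCD1LG2, which encodes PD-L2, was called with PD-1 (0.456, permutation adjusted p = 0.0281), CTLA4 (0.559, adjusted p = 0.00414) and LAG3 (0.634, adjusted p = 0.000643). The panel holds one probe named PD-L1 and one named CD274, both names of the same ligand. Their r with PD-1 was 0.234 (adjusted p = 0.328) and 0.065 (adjusted p = 0.812), with CTLA4 0.326 and 0.346 (adjusted p = 0.147 and 0.118), and with LAG3 0.281 and 0.245 (adjusted p = 0.229 and 0.303). In the 7 first-batch tumors PDCD1LG2 had an r of 0.896 with PD-1 (exact permutation p = 0.00853), and in the second batch it was 0.295 (adjusted p = 0.272).

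By function, the share of genes called, to be read against 29.5% of all pairs, differed between the lists. All 4 T cell identity genes (CD3e, CD8a, CD27 and CD28) were called with each receptor, with a median r of 0.722 for PD-1, 0.799 for CTLA4 and 0.663 for LAG3 against 0.204 over all pairs. The lists share genes, and CD27 and CD28 count again among the 5 costimulatory receptors. Of these 5, 4 were called with each receptor and OX40 was the exception (-0.172 with PD-1, 0.115 with CTLA4 and -0.276 with LAG3, with permutation adjusted p = 0.507, 0.676 and 0.239). Of the 3 costimulatory ligands (ICOSLG, CD70 and TNFSF14), 2 were called with PD-1, 0 with CTLA4 (lowest unadjusted p 0.0800, for TNFSF14) and 1 with LAG3. In the regulatory group, FOXP3 and the suppressive cytokine IL10 were called with all 3 receptors (IL10 0.656, 0.523 and 0.628), while TGFb had r of -0.234, -0.254 and -0.342 and was not called (adjusted p = 0.328, 0.281 and 0.120). Of the 4 cytolytic and NK cell genes, 3 were called with PD-1, 2 with CTLA4 and 3 with LAG3. Of the 6 chemokine and stromal genes, 0 were called with PD-1 (unadjusted p under 0.05 for IL8, at 0.0355) and with LAG3 (CCL2, at 0.0321), and 1 with CTLA4, the neutrophil chemokine CXCL2 (0.453, adjusted p = 0.0284). With equal medians the number of genes called fell to 6 for PD-1 (3 of them negative), 4 for CTLA4 (2 of them negative) and 0 for LAG3. Under that scaling 159 of all 946 pairs were called, 83 of them positive (8.77%). The breadth of these lists thus depends on the scaling.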

How the data were processed

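RNA of 34 tumors and 2 mucosa samples was counted on NanoString nCounter. The authors deposited a housekeeping-normalized signal for each gene and raw counts of the controls. The nSolver version is not given in the sources used here. Each sample's scaling factor was estimated from its own gene values, as the step that left the fewest of them not whole. Dividing by it returned whole counts for 1728 of 1728 gene values (tolerance 0.01 deposited units), which gave depth and the counts set against background. As the factor was chosen for whole values, their wholeness is no independent check. With 48 genes a sample, these counts could not be checked in another way, and no count test was run on them. Values were tested as log2 without a pseudocount, with limma 3.58.1 in R 4.3.3 for group differences and permutation of Pearson's r (scipy 1.17.1, 100000 permutations, exact with 7 tumors) for co-expression, after checks on simulated data. Batches were set from the ratio of positive controls (threshold 2). Named genes were the receptors, CD3e, the 5 genes of the lists most correlated with each receptor, those passing given CD3e, the PD-1 ligands and the costimulatory and regulatory lists. The members and lists were chosen with earlier results of these data known. Alternatives covered scaling, background, pseudocount, batch, depth and left-out samples. Some genes of the panel are left unreported.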

Additional observations from a re-analysis of the deposited data

How the results depend on the processing

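Each result was recomputed with 1 choice changed at a time, or 2 where a test or floor was combined with the first batch alone. Of 347 recomputed values, 284 were marked the same as the main result. Tests had to keep their direction and their side of the threshold, and slopes their sign and whether their interval included 1. Counts of genes called were marked the same when they stayed within a set fold of the main count, which is a looser rule. The difference between tumors and mucosa stayed positive throughout. The calls lost are listed here only for fits that kept both mucosa samples. CTLA4 lost its call by the unequal-variance test (2.23) and with equal medians (1.03). It also lost it, at 1.88, with the batch as a term, 3 batches as terms, or the first batch alone with or without the background floor. LAG3 lost it with equal medians (0.85) and with the batch as a term (1.56), and PD-1 with the batch or 3 batches as terms (2.29). The exact permutation test within the first batch called none of them. Leaving out a mucosa sample gave 3.81 to 3.94 for PD-1, 1.06 to 3.41 for CTLA4 and 2.03 to 2.08 for LAG3, given here as sizes only and not as calls that held. With CD3e as a covariate, the difference between batches was 1.17 for PD-1 and turned to -0.36 for CTLA4.

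With equal medians r was 0.134 for PD-1 with CTLA4, 0.086 for PD-1 with LAG3, 0.015 for CTLA4 with LAG3 and -0.244 for LAG3 with CD3e, and in the 7 tumors of the first batch the receptor pairs gave 0.469, 0.612 and 0.871 without a call after adjustment. Given CD3e, PD-1 with CTLA4 turned to -0.038 with equal medians and to -0.0019 with the mean of CD3e, CD27 and CD28 as the covariate. Genes called with a receptor fell to 6 for PD-1, 4 for CTLA4 and 0 for LAG3 with equal medians, to 0 for each in the first batch alone (at an unadjusted p under 0.05, 2, 12 and 11), and to 13 for PD-1 without the tumors of patients 33 and 34, an alternative chosen after seeing the data. With equal medians, 3 of the 6 for PD-1 and 2 of the 4 for CTLA4 were negative. Given CD3e, 2 genes were called for PD-1 in the second batch alone, 8 for CTLA4 given CD8a instead, and 1 for LAG3 by Spearman's rho, the negative relation with OX40.

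With CD3e, CD27 and CD28 averaged as the reference, the difference between tumors and mucosa was 2.06 for PD-1, 0.41 for CTLA4 and 0.23 for LAG3. With CD3e alone as the reference, the difference in the first batch was 0.95 for PD-1, 0.54 for CTLA4 and 0.22 for LAG3. Without the tumors of patients 33 and 34, again with CD3e alone, it was 0.022 for CTLA4. Leaving out a mucosa sample, also with CD3e alone, gave 0.38 to 2.64 for PD-1, -0.24 to -0.02 for CTLA4 and -1.35 to 0.73 for LAG3. The slope on CD3e excluded 1 for PD-1 with a batch term (0.65), in the second batch (0.67) and with equal medians (0.58), where that of LAG3 was -0.14. The cause of these changes was not tested.

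The 2 mucosa samples, both in the first batch and both below background for PD-1, limit every comparison with mucosa. Chosen after seeing the data were the 3 batches, depth as a covariate, both additional first-batch tests and leaving out patients 33 and 34. The planned test on counts was not run. No paired analysis was possible because the groups share no patient number and nothing in the labels ties samples to dogs.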
